A study of Mus musculus with 3 samples.

Results

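The genes described here are the 5 NF-kappaB subunits Rela, Rel, Nfkb1, Relb and Nfkb2, the 4 inhibitor genes Nfkbia, Nfkbib, Nfkbid and Nfkbiz, and Tnfaip3, which encodes the feedback regulator A20. They were taken by symbol from the GENCODE M21 gene and transcript tables, as 10 of 55536 genes, and carry 57 annotated transcripts. The cells were effector memory CD4-positive, alpha-beta T cells, primary cells of 1 male C57BL/6J mouse aged 7 months. No treatment, genotype change or comparison group is named in the labels, so every value describes these cells alone. PolyA RNA was sequenced in 3 libraries, which the labels call technical replicates of a single biological replicate. The SD below is therefore the spread between libraries of the same mouse and not between mice.

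NF-kappaB is a family of transcription factors that work as dimers and share a DNA-binding Rel homology domain. In resting cells the dimers are held in the cytoplasm by inhibitors of the IkB family, and signals from the T cell receptor, CD28 or TNF receptors activate the IKK complex, which marks IkB for destruction and frees the dimers. In the canonical route the freed dimers hold RelA or c-Rel with p50, which is made from the Nfkb1 precursor p105. In the alternative route the kinase NIK leads to processing of the Nfkb2 precursor p100 to p52, which pairs with RelB. Nfkbia and Tnfaip3 are themselves textbook targets of the pathway and close its negative feedback.

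The 3 libraries held 16251564, 14878641 and 14152590 estimated counts over genes. Library 2 gave the highest TPM for 54.1% of the protein-coding genes with at least 10 TPM in every library, against 24.8% for library 1 and 21.1% for library 3. TPM is a level of transcripts corrected for their length and for library depth, and it is the scale on which genes are compared here. The 5 CD4 T cell markers were all present, with a summed level of 5694 to 6576 TPM and a lowest mean of 388.8 TPM. Of 35 markers of other cell types, 30 had a mean below 1 TPM, and the highest, Klrb1c of natural killer cells, had 18.0 TPM. In a bulk RNA sample, fewer cells that express a gene and less RNA per cell cannot be told apart.

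All 10 genes reached at least 10 TPM in every library, a level reached by 32.9% of the 22015 nuclear protein-coding genes. At least 100 TPM in every library was reached by 8 of the 10, against 7.21% of nuclear protein-coding genes. The exceptions were Nfkb1 and Rel, whose lowest library was at 96.7 TPM. The median mean level of the 10 was 293 TPM ± 24.3 (SD, n = 3 libraries). Across the 10000 nuclear protein-coding genes with at least 1 TPM in every library the median was 27.8 TPM.

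Nfkbia encodes IkB-alpha, the inhibitor that sequesters RelA and c-Rel dimers in the cytoplasm and is resynthesised after they are freed. It lies at chr12:55489410-55492647 on the minus strand of mm10. Its level was 2985, 3334 and 3044 TPM in libraries 1, 2 and 3. Library 2 was the highest and libraries 1 and 3 lay close together. Nfkbia took places 13 to 16 among nuclear protein-coding genes. Tnfaip3 encodes A20, a ubiquitin-editing enzyme that shuts down signalling upstream of IKK. It lies at chr10:19000910-19015657 on the minus strand and had 2550, 2652 and 2449 TPM. Its places were 18 to 26, and its 3 values lay below the 3 values of Nfkbia without overlap. The ratio of Nfkbia to Tnfaip3 was 1.22 ± 0.0463 (SD, n = 3 libraries). That order depended on how the transcripts were counted, as given with the transcripts below. In a second deposited count table, described with the libraries below, Tnfaip3 took place 7 of the 10 genes per kilobase of all annotated exon.

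The 2 atypical inhibitors act mainly in the nucleus, where they bind NF-kappaB dimers on DNA and can raise or lower the activity of target genes. Nfkbiz, which encodes IkB-zeta, lies at chr16:55811375-55838899 on the minus strand and had 786, 843 and 781 TPM. Nfkbid, which encodes IkBNS, lies at chr7:30421732-30428746 on the plus strand and had 728, 803 and 735 TPM. Their ranges overlapped, while within each of the 3 libraries Nfkbiz was the higher, by a ratio of 1.06 ± 0.0143 (SD, n = 3 libraries). Nfkbib encodes IkB-beta, a cytoplasmic inhibitor related to IkB-alpha. It lies at chr7:28758251-28767512 on the minus strand and had 249, 281 and 244 TPM. Nfkbia stood 12.1-fold ± 0.33 above Nfkbib, and it made up 63.2% ± 0.288 of the summed TPM of the 4 inhibitors. Both values take in an Nfkbia transcript that is not protein-coding, given below. With protein-coding transcripts alone, Nfkbia had 1631 ± 51.6 and Nfkbib 258 ± 20.2 TPM. In the second table they had 1274 and 680 counts per kilobase of exon.

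Among the subunits, Nfkb2 and Rela led. Nfkb2, at chr19:46304320-46312385 on the plus strand, had 279, 326 and 273 TPM. Rela, which encodes the subunit p65 with a strong transactivation domain, lies at chr19:5637483-5648130 on the plus strand and had 273, 316 and 289 TPM. Nfkb2 was above Rela in 2 of 3 libraries and below it in library 3, so these genes do not differ beyond their spread. The range of Rela also overlapped that of Nfkbib, although Rela was the higher in each library.

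Relb, which encodes the partner of p52, lies at chr7:19606217-19629438 on the minus strand and had 204, 219 and 196 TPM. Rel encodes c-Rel, the subunit best known for cytokine transcription in activated lymphocytes, and lies at chr11:23736847-23770970 on the minus strand. It had 106, 117 and 96.7 TPM. Nfkb1, at chr3:135584655-135691547 on the minus strand, was the lowest of the 10 with 58.3, 53.7 and 60.9 TPM. It was the only gene of the 10 that was not highest in library 2, where it had its lowest value. Its place among nuclear protein-coding genes was 2712 to 3218.

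**Figure D1:**
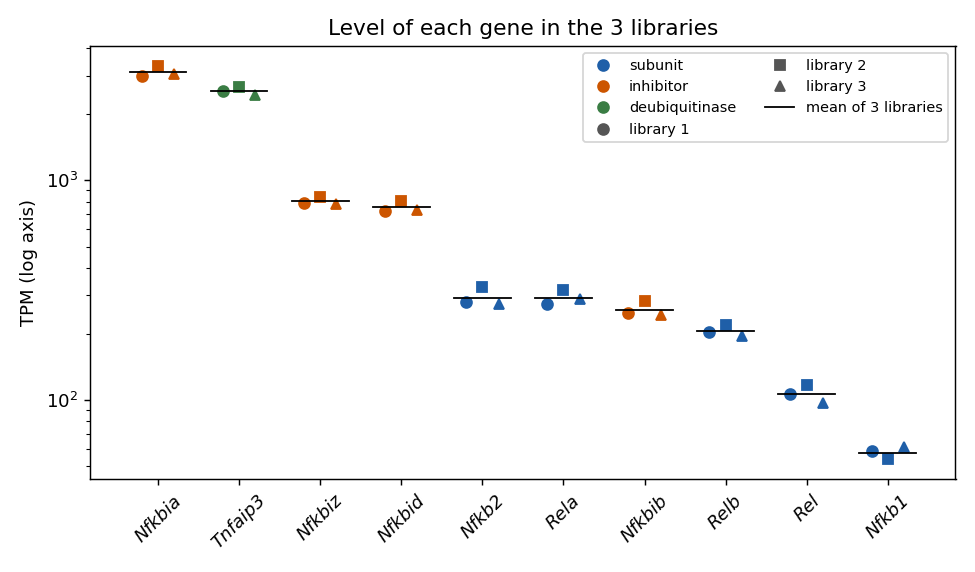
TPM on a log axis for each of the 10 genes, ordered by mean, with 1 point per library and a line at the mean of the 3 libraries; colour gives the role and the point shape the library. The levels run from 57.7 TPM for Nfkb1 to 3121 TPM for Nfkbia, with 3 of the 4 inhibitor genes above every subunit.

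As shares of the summed subunit TPM, Rela made up 30.6% ± 0.922, Nfkb2 30.6% ± 0.897, Relb 21.6% ± 0.49, Rel 11.1% ± 0.513 and Nfkb1 6.06% ± 0.755 (SD, n = 3 libraries). The alternative-route subunits Relb and Nfkb2 together stood at 1.09 ± 0.0352 times the sum of Rela, Rel and Nfkb1. The Nfkb2 to Nfkb1 ratio of TPM was 4.79, 6.06 and 4.49 in libraries 1, 2 and 3. The 4 inhibitors summed to 4748, 5261 and 4803 TPM and the 5 subunits to 922, 1031 and 916 TPM. The ratio of inhibitor to subunit TPM was 5.17 ± 0.0734, and with Nfkbia and Nfkbib alone as inhibitors it was 3.54 ± 0.0484. With no length correction the ratio was 2.65 in estimated counts and 0.907 in the second count table. A scale per kilobase of all annotated exon was added after seeing the data. On it the ratio was 5.17 in estimated counts and 1.49 ± 0.0448 in the second table. On this scale the 4 inhibitors together were above the subunits in both tables. In the second table Nfkbia and Nfkbib alone, at 1274 and 680 counts per kilobase, stayed below the summed subunits. The subunits Nfkb2, Rela and Relb had 876, 799 and 529 there. In TPM, the inhibitors exceeded the subunits in every library.

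The order of Rel and Rela differed between counts and TPM. Rel has 1 annotated transcript of 7466 bases, while the main Rela transcript has 2716 bases. In estimated counts Rel had 7831, 7694 and 6305 and Rela 6882, 6749 and 6172, so Rel was above Rela in all 3 libraries by 1.10 ± 0.0678. In TPM, Rela was above Rel by 2.75 ± 0.21.

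Transcript tables showed that a large part of the TPM of Nfkbia and Nfkb1 was assigned to transcripts not annotated as protein-coding. These are retained-intron, processed and nonsense-mediated-decay transcripts, grouped below as other transcripts. For Nfkbia they took 46.9%, 49.4% and 46.8% of its TPM, and for Nfkb1 82.8%, 71.8% and 66.7%. Among 6217 nuclear protein-coding genes with at least 10 TPM and at least 1 such transcript, the median share was 21.7%, with quartiles of 7.78% and 43.7%. Nfkb1 stood at the 92.5th percentile of these genes and Nfkbia at the 78.3rd. The other members were lower. Relb had 14.7% ± 1.84, Rela 12.1% ± 4.32, Nfkbid 11.3% ± 0.118, Nfkb2 6.71% ± 1.53, Tnfaip3 3.14% ± 0.142 and Nfkbiz 0.14% ± 0.0151. Rel and Nfkbib have no such transcript in the annotation.

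**Figure D2:**
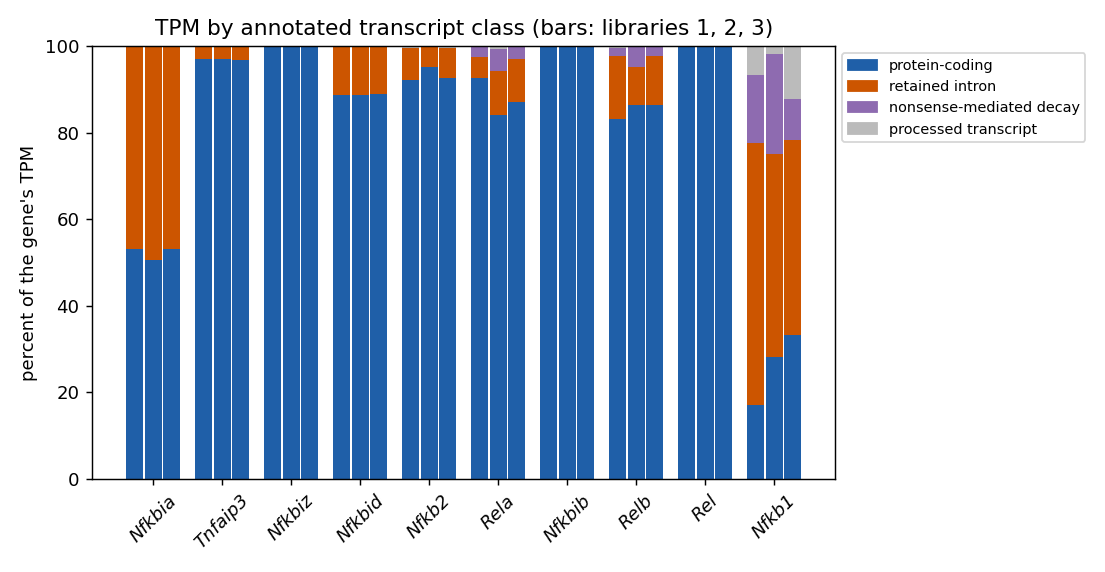
Percent of each gene's TPM by annotated transcript class, with 3 bars per gene for libraries 1, 2 and 3. Nfkbia is split nearly evenly between its coding and its retained-intron transcript in each library, and Nfkb1 has the smallest protein-coding part of the 10, with 82.8% outside it in library 1 and 66.7% in library 3.

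Nfkbia has 2 annotated transcripts. Nfkbia-201 has 6 exons, 1578 bases and 314 codons, and had 1586, 1687 and 1619 TPM. Nfkbia-202 is a retained-intron transcript of 4 exons and 701 bases and had 1399, 1646 and 1425 TPM. Apart from 32 bases of intron 1 at its start, every base of Nfkbia-202 is also in Nfkbia-201, so those bases are the sequence in which the shorter model can be told from the longer. By estimated counts the share of Nfkbia-202 was smaller, at 28.0% ± 1.20 (SD, n = 3 libraries). The start of Nfkbia-202 and the matching exon junction of Nfkbia-201 are printed on the transcript strand to show where they part. Lower case is the shared start of exon 2, chr12:55491749-55491778. Capitals are the bases before it, which are the end of exon 1, chr12:55492300-55492331, in Nfkbia-201 and the intron, chr12:55491779-55491810, in Nfkbia-202.
Nfkbia-201: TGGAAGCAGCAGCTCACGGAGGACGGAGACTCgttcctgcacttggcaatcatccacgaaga
Nfkbia-202: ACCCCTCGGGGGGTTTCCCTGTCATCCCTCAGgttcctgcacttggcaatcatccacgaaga

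The order of Nfkbia and Tnfaip3 turned when this short transcript was treated otherwise. Counting protein-coding transcripts alone, Tnfaip3 had 2471, 2571 and 2368 TPM and Nfkbia 1586, 1687 and 1619 TPM, so that Tnfaip3 came first. With all counts of each gene placed on its longest transcript of the longest reading frame, Tnfaip3 had 2553 ± 99.8 and Nfkbia 2266 ± 109 TPM (SD, n = 3 libraries). Tnfaip3 was again the higher in every library. Both settings were chosen after seeing the data. In either case Nfkbia and Tnfaip3 remained above the other 8 genes.

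Nfkb1 was spread over 10 transcripts, and 2 of these hold the full p105 reading frame of 971 codons. Together the full-length transcripts Nfkb1-201 and Nfkb1-206 held 4.59%, 5.32% and 10.4% of the gene's TPM, or 3.97 ± 2.07 TPM (SD, n = 3 libraries). Nfkb1-201 and Nfkb1-206 fall outside the rule for named transcripts and were chosen after their values were seen. The highest mean was that of the retained-intron transcript Nfkb1-204 with 15.2, 13.3 and 11.9 TPM. Next by mean came Nfkb1-203, a coding fragment of the 3′ part with 533 codons and no annotated start codon, with 7.33, 12.3 and 13.9 TPM. Nfkb1-203 was above Nfkb1-204 in library 3, and without library 1 their mean shares were 22.9% and 22.2%, so the order of these transcripts rests on that library. The single-exon Nfkb1-208, of which 3985 of 4149 bases are in no other transcript of the gene, had 10.9, 9.07 and 10.9 TPM. Nfkb1-207, annotated for nonsense-mediated decay, had 9.15, 12.5 and 5.66 TPM.

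The assignment of reads among overlapping models limits these Nfkb1 values. The posterior SD of the estimated count, deposited with each value, was at most 0.699% for Nfkb1-208 and 3.65% for Nfkb1-204, which have long stretches of their own. It reached 18.8% for Nfkb1-203 and 28.2% for Nfkb1-207, which have no base of their own. The full-length Nfkb1-206 has 7 bases of its own, and its posterior SD ran from 32.7% to 890% between libraries. Nfkb1-201 has 2 bases of its own and was listed at 0 in library 2. The low share of the full-length transcripts therefore rests on an uncertain assignment, and whether it is right was not tested. The span of Nfkb1 also overlaps that of the same-strand gene Gm43430 over 3897 bases, and Gm43430 had 7.52 ± 0.62 TPM.

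The place where Nfkb1-204 leaves the coding transcript is printed on the transcript strand, since this model had the highest mean TPM of the gene. Lower case is the end of exon 12, chr3:135612414-135612443, which both share. Capitals are the bases that follow, which are the start of exon 13, chr3:135608264-135608295, in Nfkb1-201 and the intron, chr3:135612382-135612413, in Nfkb1-204. Nfkb1-204 keeps 1824 bases of this intron and ends within it.
Nfkb1-201: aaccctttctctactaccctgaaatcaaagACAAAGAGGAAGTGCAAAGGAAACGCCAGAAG
Nfkb1-204: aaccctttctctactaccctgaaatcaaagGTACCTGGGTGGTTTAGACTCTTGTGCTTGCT

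The other subunits were mostly full-length by these tables. For Nfkb2, the 3 transcripts with the full p100 frame of 899 codons held 82.6% ± 2.17 of its TPM. Within them the split moved between libraries, with Nfkb2-201 at 33.2%, 49.7% and 49.8% and Nfkb2-204 at 38.5%, 27.6% and 20.8%. Nfkb2-206, with a reading frame of 878 codons, held 10.7% ± 1.42. Rela-201, with 549 codons, held 87.1% ± 3.82 of Rela, and the retained-intron Rela-203 held 8.30% ± 3.04. Relb-202, with 558 codons, held 75.6% ± 1.37 of Relb, and the retained-intron Relb-206 held 8.57% ± 2.85. Relb-202 and Relb-206 have no base of their own.

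Among the inhibitors, Nfkbiz was carried almost wholly by Nfkbiz-204, at 97.1%, 97.8% and 98.1% of its TPM. This transcript has 728 codons, and the next, Nfkbiz-203, has a shorter frame of 629 codons and held 2.12% ± 0.642. For Nfkbid the shares were 40.9% ± 3.45 for Nfkbid-201 and 15.2% ± 2.44 for Nfkbid-202, both with 327 codons, and 32.6% ± 2.89 for Nfkbid-203 with a frame of 470 codons. The retained-intron Nfkbid-204 held 11.3% ± 0.118. Nfkbib-202, with 359 codons, held 96.8% ± 0.39 of Nfkbib, and Nfkbib-201, with the same 359 codons and a longer transcript, held 3.16% ± 0.39. Nfkbib shares 778 bases with Sirt2 on the other strand, which had 69.4 ± 4.65 TPM. The strand setting is not given in the sources used here, so reads from that overlap cannot be told apart. The same holds for Nfkb2, which overlaps AC114539.1, at 42.8 ± 4.71 TPM, over 1292 bases and Psd, at 7.79 ± 2.07 TPM, over 299 bases. For Tnfaip3, the 2 transcripts with the full A20 frame of 775 codons, Tnfaip3-201 and Tnfaip3-202, held 85.8% ± 0.589 and 10.1% ± 0.524.

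Upstream sequence was matched for 7 of the 10 genes, all but Relb, Nfkb1 and Nfkbiz, in the RefSeq promoter table for GRCm38.p6, as 12 windows that each begin 250 bases before an annotated start. These were searched on both strands for the kappaB consensus, the 10-position motif that NF-kappaB dimers bind. At least 1 window with a match was found for Nfkb2, Nfkbia, Nfkbid, Rel and Tnfaip3, that is for 5 of 7 genes and 7 of 12 windows, while Nfkbib and Rela had none in these windows. Over the whole table, 4.46% of 27025 genes and 3.90% of 32851 windows held a match. The 14 matches of these genes fell in 10 places once overlapping matches were merged, and 2 places matched on both strands. Of the 29 textbook target genes outside the 10, 24 had a window and 9 of these held a match. A match describes the letters and does not show binding in these cells.

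The window of Nfkbia is printed whole, since this was the highest of the 10 genes by TPM. It covers chr12:55492648-55492897 in the sense of the gene, with the match in capitals at bases 29 to 20 before the start. For the other 4 genes, 30 bases around the match nearest to a start are printed in the sense of the gene, with the match in capitals. They are chr19:46304707-46304736 for Nfkb2, chr11:23771041-23771070 for Rel, chr7:30422215-30422244 for Nfkbid and chr10:19015411-19015440 for Tnfaip3. The starts are those of RefSeq. The places printed for Nfkb2, Nfkbid and Tnfaip3 lie before such a start but inside the GENCODE M21 span of the gene given above. The place shown for Nfkb2 lies at bases 11 to 2 before the start, and a second place in the same window, at bases 39 to 29, is not printed. The match shown for Rel lies at bases 92 to 82, that for Nfkbid at 181 to 172 and that for Tnfaip3 at 12 to 3.
Nfkbia upstream window: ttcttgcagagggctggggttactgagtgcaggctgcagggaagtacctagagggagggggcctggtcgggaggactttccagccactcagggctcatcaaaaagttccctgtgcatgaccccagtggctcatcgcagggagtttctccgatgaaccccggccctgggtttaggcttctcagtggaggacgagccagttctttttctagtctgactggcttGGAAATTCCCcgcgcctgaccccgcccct
Nfkb2 match: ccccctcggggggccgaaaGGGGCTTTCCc
Rel match: gtaagcagcGGGAAATCCCCccccctcccc
Nfkbid match: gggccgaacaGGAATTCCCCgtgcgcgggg
Tnfaip3 match: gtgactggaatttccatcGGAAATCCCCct

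The 3 libraries differed in most genes by more than counting noise, and so did all 10 genes described here. A chi-square test of estimated counts against shares expected from TMM library sizes, with Benjamini-Hochberg adjustment over 13949 genes, called 10 of the 10 genes and 57.2% of all genes tested. Among 2340 genes with total counts within the range of the 10, it called 82.5%. The differences were small. The ratio of the highest to the lowest library after scaling ran from 1.09 to 1.22 over the 10 genes, with a median of 1.10. The median was 1.27 over all genes tested and 1.14 over the genes of like depth.

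The median chi-square over all genes was 6.45 times that of counting noise alone, and 20.8 times over the genes of like depth. Only the value over all genes was used for division, so the adjusted p-values that follow take no account of depth. After this division, an adjusted p under 0.05 was kept by 4.45% of all genes and 22.0% of the genes of like depth. Of the 10 genes, 5 stayed past it. These were Tnfaip3 with an adjusted p of 5.23e-10, Nfkb2 with 0.00035, Nfkbia with 0.0011, Rel with 0.00121 and Nfkbiz with 0.0154. Nfkb2 and Rel had the widest ratios, at 1.20 and 1.22. Tnfaip3, whose ratio was only 1.09, had 110956, 102725 and 94422 estimated counts, the most of the 10. Nfkb1 was the least distinct, with an adjusted p of 0.0144 before and 0.989 after the division. Without library 2 and before any division, Rel, Relb and Tnfaip3 were called and the other 7 genes were not. In that setting 27.5% of all 12904 genes tested were called, so the count is near the share over all genes.

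**Figure D3:**
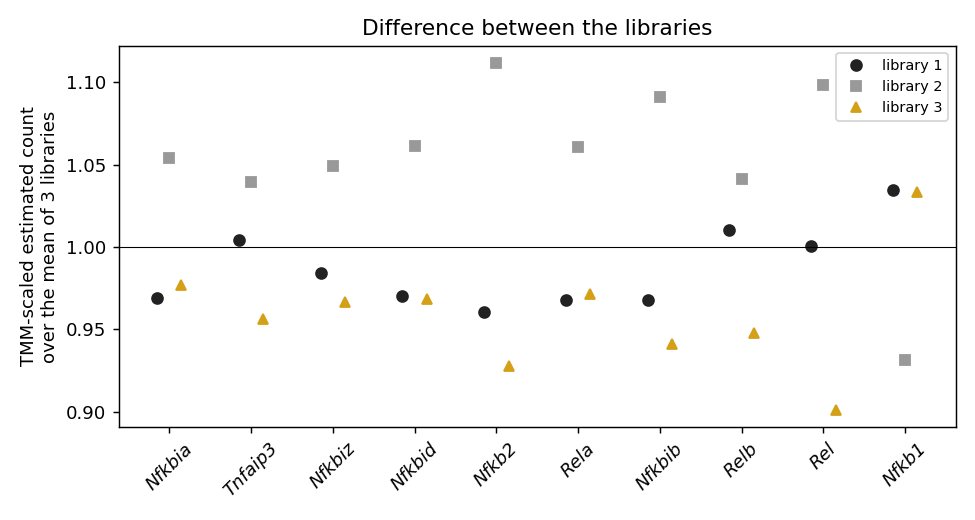
TMM-scaled estimated count of each gene in each library divided by its mean over the 3 libraries, with a line at 1. Library 2 is highest for 9 of 10 genes and lowest for Nfkb1, and the points lie between 0.901 for Rel in library 3 and 1.11 for Nfkb2 in library 2.

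The split of a gene between its transcripts also varied between libraries. A chi-square test of transcript counts called 8 of the 9 genes that could be tested, against 86.9% of 8754 genes, and left out Rel, which has a single transcript. The exception was Nfkbib, with an adjusted p of 0.0993. After division by the median inflation of 9.18, 5 of the 9 genes stayed past the threshold, against 15.0% of all genes tested. These were Nfkb2 with an adjusted p of 3.43e-16, Nfkb1 with 8.94e-05, Nfkbid with 0.00118, Relb with 0.00334 and Nfkbiz with 0.00476. For this test no share over genes alike in depth and number of transcripts is given, so the excess cannot be read as particular to these genes. For Nfkb2, the share of Nfkb2-201 rose and that of Nfkb2-204 fell from library 1 to the other libraries. Nfkb2-204 also fell between library 2, at 27.6%, and library 3, at 20.8%. Without library 1 and before any division, the same test still gave Nfkb2 an adjusted p of 5.4e-35. The test treats assigned counts as observed and takes no account of the assignment error, whose posterior SD was 7.45% to 15.3% for Nfkb2-201 and 10.8% to 23.8% for Nfkb2-204.

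A second deposited table of whole-number counts, from another alignment and GENCODE M4, held much lower counts of the highest genes. There Tnfaip3 had 4900, 4883 and 4899 counts and Nfkbia 2063, 2043 and 2049, nearly the same number in each library. The estimated counts exceeded the second counts by 21-fold for Tnfaip3, 15.5-fold for Nfkbia, 6.27-fold for Nfkbiz, 5.71-fold for Nfkbid and 4.05-fold for Rel. For Rela the ratio was 2.69, and for Nfkb1, Relb, Nfkb2 and Nfkbib it lay between 1.96 and 2.30. Over 8581 genes with a mean of at least 100 counts the median was 1.96.

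The ratio of the 2 counts rose with the level over all genes as well. Its median was 1.79 for 3027 genes with 100 to 300 estimated counts per kilobase of exon, 9.07 for 160 genes with 3000 to 10000, and 39.9 for 40 genes with more. How the second counts were made is not given in the sources used here, and which table is nearer to the true level was not tested. Per kilobase of exon, the second table placed Nfkbia first with 1274 counts, followed by Nfkbid with 933, Nfkb2 with 876, Nfkbiz with 839.7 and Rela with 798.7. Nfkbib had 680.0, and Tnfaip3, the second of the 10 in TPM, was in place 7 with 677. Relb with 529, Rel with 241 and Nfkb1 with 52.8 held the last places, in the same order as in TPM. The excess of Nfkbia over Rela was thus 9.20-fold in estimated counts per kilobase and 1.60-fold in the second table. The length used here is all exon that GENCODE M21 annotates for a gene. It is 7226 bases for Tnfaip3, 3885 for Relb and 1610 for Nfkbia. Their leading transcripts have 4422, 2209 and 1578 bases, so the places depend on this choice. Places by the length of the leading transcript were not computed for the second table.

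**Figure D4:**
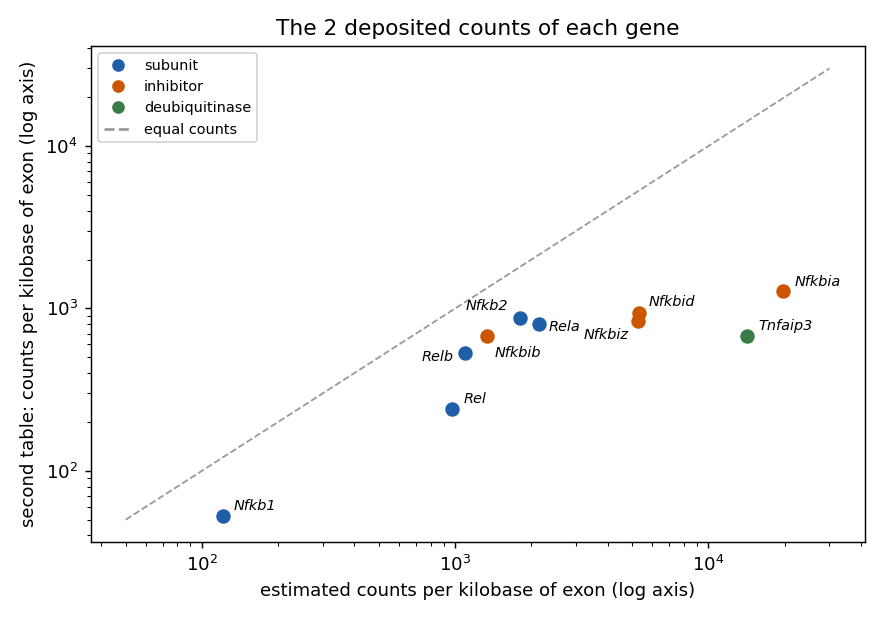
Mean counts per kilobase of exon for each of the 10 genes in the second table against the estimated counts, both on log axes, with a dashed line at equal counts and colour for the role. All 10 genes lie below the line, and Nfkbia and Tnfaip3 lie farthest below it, at 15.5-fold and 21-fold.

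Around these genes, 98 further genes of the pathway in 9 lists were described, and 80 of them reached at least 10 TPM in every library. Of the IKK complex, the catalytic subunits Ikbkb and Chuk had 274 ± 11.7 and 80.0 ± 2.67 TPM, and the scaffold Ikbkg had 28.1 ± 4.67 TPM (SD, n = 3 libraries). Map3k14, the kinase NIK of the alternative route, had 131 ± 0.838 TPM. Of the 13 genes in the list of IKK and upstream kinases, 11 were at 10 TPM or more and the list median was 70.9 TPM. The other kinases and adaptors named by the rule were Tank at 114, Ikbke at 85.4 and Map3k3 at 80.0 TPM.

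All 8 genes of the T cell receptor route reached 10 TPM. The adaptor Bcl10 and the protease Malt1, which link the receptor to IKK, had 166 ± 4.02 and 85.1 ± 2.76 TPM. Prkcq, a kinase upstream of them, had 258 ± 17.3 TPM and the costimulatory receptor Cd28 had 431 ± 14.3 TPM. Traf6 was lowest of this list at 22.9 ± 2.06 TPM, and Csnk1a1 and Pdpk1 had 189.7 and 44.7 TPM. All 13 genes of the TNF receptor route reached 10 TPM as well. The receptor Tnfrsf1b, at 471 ± 26.3 TPM, stood far above Tnfrsf1a, at 23.9 ± 0.167. Traf1 led the list with 1286, 1237 and 1316 TPM, and Traf2 had 72.8 ± 6.31 TPM. The ubiquitin ligases Birc3 and Birc2 had 218 ± 19.6 and 138 ± 16.9 TPM, and Rbck1 and Sharpin of the linear ubiquitin ligase had 233 and 125 TPM.

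Receptors known to engage the alternative route were split. Of 7 genes, Tnfrsf4, which encodes OX40, had 532, 582 and 505 TPM, Cd27 had 226 ± 5.88 and Tnfrsf9 had 25.7 ± 1.66, and the other 4 had means below 1 TPM. Ltbr, the lymphotoxin beta receptor, had 0 counts in every library, where a count of 0 allows up to 3 counts, or 0.185, 0.202 and 0.212 CPM. Its ligand gene Ltb was at 913, 1216 and 942 TPM, the highest of 8 ligand genes. Cd40lg had 443.5 ± 5.75 TPM, Tnfsf8 315 ± 18.3, Tnf 125 ± 12.5 and Tnfsf11 53.2 ± 7.71.

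The other IkB genes Bcl3 and Nfkbie were lower than the 4 inhibitors among the 10. Bcl3, a nuclear partner of p50 and p52, had 178 ± 22.2 TPM and Nfkbie, which encodes IkB-epsilon, 133 ± 5.38 TPM. Nkiras1, Nfkbil1 and Nkiras2, which were only listed beside the IkB genes, lay between 11.0 and 16.5 TPM. Of 13 other negative regulators, 11 reached 10 TPM, and none reached the 2550 TPM of Tnfaip3. Tax1bp1 and Tnip1, which work with A20, had 313 ± 32.3 and 213 ± 2.82 TPM. Zc3h12a, a ribonuclease that degrades inflammatory messages, had 164 ± 22.1 TPM, the deubiquitinase Cyld 102 ± 9.02 and Otulin 81.6 ± 6.72.

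Among 29 textbook target genes outside the 10, 20 reached 10 TPM and 7 had means below 1 TPM. Traf1 was the highest at 1280 ± 40.1 TPM, followed by Bcl2a1b at 1060 ± 95.4, Bcl2a1d at 653 ± 35.8 and Gadd45b at 619 ± 17.4 TPM. Bcl2a1b and Bcl2a1d are closely related copies, and the posterior SD of their estimated counts was at most 1.15% and 1.44%. Whether the counting splits them correctly was not tested. Icam1 had 241 ± 25.1 and Bcl2l1 86.5 ± 3.85 TPM. The cytokine target Csf2 had 9.88 ± 0.901 and Il2 2.12 ± 0.231 TPM, the latter on 64.0 estimated counts over the 3 libraries. All 8 nuclear cofactors reached 10 TPM. Among them Rps3 had 982 ± 155 TPM and Hmgb1 198 ± 7.95.

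**Figure D5:**
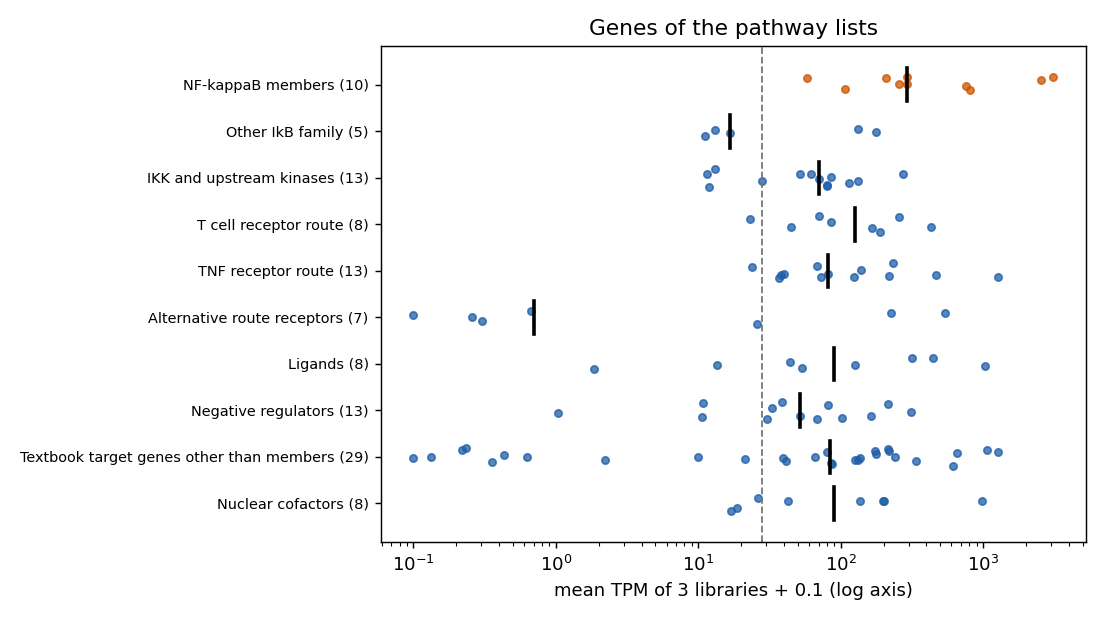
Mean TPM of the 3 libraries plus 0.1, on a log axis, for every gene of each list, with 1 point per gene, a bar at the list median and the number of genes in brackets; the dashed line is the median of nuclear protein-coding genes with at least 1 TPM. The 10 genes described here have a median of 293 TPM, and the list medians of the others run from 0.607 to 125 TPM.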

How the data were processed

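PolyA RNA libraries labelled as effector memory CD4 T cells from 1 mouse were analysed as 1 group of 3 libraries, numbered by the labels' technical replicate number. Per the file headers, the authors deposited, for genes and transcripts, expected counts, which are estimated counts that share ambiguous reads, with TPM, FPKM and the percent of gene TPM taken by each transcript. Per the notes deposited with the files, these rest on mm10 and GENCODE M21. The authors also deposited whole-number gene counts from another alignment with GENCODE M4, of which 22195 of 22457 rows matched by identifier. The aligner, quantifier, versions, strand setting, library kit and way of sorting the cells were not given in the sources used here.

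Estimated counts were rounded and compared between libraries by a chi-square test with TMM library sizes from edgeR 4.0.16 in R 4.3.3, over genes with at least 30 counts. Transcript counts within a gene were tested likewise over genes with at least 30 counts in each library, with transcripts under 10 counts merged. P-values were adjusted by Benjamini-Hochberg over all genes tested, with a threshold of 0.05. Both tests were run on simulated data with known changes. The simulated counts held counting noise alone, with no assignment error and no further spread between libraries. They therefore do not show how the tests behave on these data. These tests compare libraries and not mice. DESeq2 1.42.0 size factors were an alternative, with other filters, posterior mean TPM, rescaled FPKM, the second table and leaving out each library. SciPy 1.17.1 and pandas 2.3.3 were used. Transcript structure and junction sequences come from GENCODE M21 and upstream windows from RefSeq on GRCm38.p6. Protein sequences were not used here.

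The 10 genes, the pathway lists and the tests were chosen with earlier results of these data known. The text names all 10 genes, their leading 2 transcripts with any other at 10% or more of TPM, 25 key genes over the 9 lists, and in each list the 3 others with the highest mean TPM. Some genes that this rule takes are not reported here.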

Additional observations from a re-analysis of the deposited data

How the results depend on the processing

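Of the 10 genes, Nfkbia and Tnfaip3 held the first 2 places by level and Nfkb1 the last under every TPM and FPKM setting run. Per kilobase of all annotated exon in the second table, Tnfaip3 was in place 7, a place that depends on the length chosen. Also, all 10 kept at least 10 TPM without any single library. The median level of the 10, 293 TPM, was 252 with posterior mean TPM, 345 with FPKM rescaled over nuclear protein-coding genes and 268 with protein-coding transcripts only. The 7973 genes that differed between libraries became 621 after division by the median inflation and 2801 of 10267 in the second table, and 3546 to 5487 when 1 library was left out, lowest without library 2. The 7607 genes with differing transcript shares became 1316 after division by the inflation. In the second table, with no length correction, the subunit shares were 22.4% for Rela, 16.4% for Rel, 18.8% for Relb and 36.7% for Nfkb2. The ratio of inhibitors to subunits, 5.17 in TPM, was 3.54 with Nfkbia and Nfkbib only. With all 4 inhibitors it was 2.65 in estimated counts and 0.907 in the second table with no length correction. It was 1.49 in the second table per kilobase of exon, where Nfkbia and Nfkbib alone stayed below the subunits. The median share of the leading transcript, 80.3% in TPM, was 77.9% with posterior mean TPM. Of the 98 pathway genes, 35 reached 100 TPM. The cause of these moves was not tested. In single genes, 5 of 10 calls between libraries were lost in the second table, 7 without library 2 and 1 each with total-count scaling and without library 3. Of all genes tested, 27.3% were called in the second table, 27.5% without library 2, 54.5% with total-count scaling and 42.3% without library 3. The order of Nfkbia and Tnfaip3 turned with all counts on 1 transcript and with protein-coding transcripts only, both added after seeing the data, as was the scale per kilobase of exon. The degron and protein identity of the planned sequence description were not run.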
